A study of Homo sapiens with 9 samples.

Results

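The comparison described here asked what 2 short hairpin RNAs directed at FAM83H-AS1, a long noncoding RNA, have in common in MDA-MB-468 cells, a human basal-like, triple-negative breast cancer line. The mean of the 2 hairpin effects was set against the control hairpin. Genes with at least 1 FPKM (the authors' read count scaled by gene length and library depth) in at least 3 of the 9 libraries were tested, 11875 of the 31004 in the table. Of these, 9337 differed from control in the same direction with both hairpins and make up the set described, with 4091 higher and 5246 lower in knockdown cells. The other 2538 had opposite signs. Both effects subtract the same 3 control libraries, which by itself favours a shared sign, so these counts are a description and not a measure of a common response.

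There were 3 groups of 3 libraries: shFAM83H-AS1_1 (hairpin 1), shFAM83H-AS1_2 (hairpin 2) and the control hairpin shNC. Every group, shNC included, was transduced with lentivirus at an MOI of 10, selected in puromycin at 1 µg/mL and kept as a stably selected line in medium with serum. Each library was made from 2 µg of total RNA. Whether libraries of a group are separate cultures is not stated in the labels, so p-values measure only the spread between these libraries, which may be technical. Each group may be only 1 selected line, and the sequences of the hairpins were not used here.

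A short hairpin RNA is processed into a small interfering RNA that directs cleavage of transcripts it pairs with, and hairpins of different sequence are often used against 1 target because each can also pair with other transcripts. Long noncoding RNAs can act in the nucleus on transcription or in the cytoplasm on other RNAs and proteins. NF-kB is a family of transcription factors held inactive in the cytoplasm by IkB proteins until signals such as TNF release it, after which it switches on chemokine, adhesion and feedback inhibitor genes. Basal-like breast cancer cells are known for making such chemokines themselves.

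Chemokine and feedback genes of this kind made up much of the lower side of the comparison, so the 250 bases before the transcription start are shown for 4 of them, taken from RefSeq on GRCh38.p14 and written 5′ to 3′ on the gene's strand. Capitals mark matches to GGNNNTTCC, a loose form of the NF-kB motif, on either strand (GGAANNNCC when read on the printed strand). CXCL1 lies at chr4:73869143-73869392 on the plus strand, CXCL3 at chr4:74038690-74038939 on the minus strand, CXCL8 at chr4:73740319-73740568 on the plus strand and TNFAIP3 at chr6:137867009-137867258 on the plus strand.
CXCL1: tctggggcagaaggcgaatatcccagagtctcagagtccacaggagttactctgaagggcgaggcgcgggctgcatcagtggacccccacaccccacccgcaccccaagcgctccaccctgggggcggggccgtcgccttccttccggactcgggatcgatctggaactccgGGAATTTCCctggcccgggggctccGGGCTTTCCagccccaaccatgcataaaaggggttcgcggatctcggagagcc
CXCL3: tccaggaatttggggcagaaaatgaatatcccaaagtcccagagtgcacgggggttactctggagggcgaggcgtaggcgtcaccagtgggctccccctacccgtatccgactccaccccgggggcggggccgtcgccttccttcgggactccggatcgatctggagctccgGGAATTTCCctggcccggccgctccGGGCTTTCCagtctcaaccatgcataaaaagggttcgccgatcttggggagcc
CXCL8: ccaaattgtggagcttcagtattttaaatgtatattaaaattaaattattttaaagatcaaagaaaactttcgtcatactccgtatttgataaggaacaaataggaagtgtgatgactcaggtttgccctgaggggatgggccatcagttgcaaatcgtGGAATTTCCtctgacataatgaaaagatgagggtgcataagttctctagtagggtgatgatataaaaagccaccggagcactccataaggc
TNFAIP3: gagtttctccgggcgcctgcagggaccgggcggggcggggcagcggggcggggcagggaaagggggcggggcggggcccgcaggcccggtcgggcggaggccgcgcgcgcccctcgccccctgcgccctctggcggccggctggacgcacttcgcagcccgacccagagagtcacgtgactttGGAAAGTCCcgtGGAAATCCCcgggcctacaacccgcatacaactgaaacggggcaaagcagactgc
CXCL1 and CXCL3 both held GGAATTTCC 78 bases and GGGCTTTCC 53 bases before the start, and CXCL8 held GGAATTTCC 91 bases before it. TNFAIP3 held GGAAAGTCC and GGAAATCCC, 67 and 55 bases before the start, as matches on the opposite strand. Matches also lay before ICAM1 (GGAAATTCC, 186 bases), CCL20 (GGAAAACCC, 79 bases) and UTP18 (GGAACTCCC, 155 bases). The TNF window held none. In all, the motif was in 7 of the 11 windows of genes called lower, in 0 of 5 of genes called higher, in 20.4% of the 8725 tested genes with a window and in 17.1% of all 35116 windows of this length. Called genes without a window are not in these counts. Among them were CCL2, which had the largest fall, and NNMT on the lower side, and ITGB4, ZNF703, SERPING1 and EEF1A2 on the higher side. Called members of the list of NF-kB targets described below held it in 6 of 7 windows, and UTP18 was the only other lower gene with it. CXCL1 and CXCL3 are close paralogues with the same matches, so they are not separate observations. These are matches of letters, and the motif was chosen with earlier results of these data known.

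The libraries held 15264471 to 18107127 reads in genes, and 10665 to 11807 genes reached 1 FPKM in a library. One library stood apart before any comparison: shFAM83H-AS1_1 replicate 3 scored 61.2 on a first principal component with 53.5% of the variance, against -24.3 to 5.7 for the rest. Its correlation across genes with its replicates was as low as 0.941, and fewer genes reached 1 FPKM in it than in any other library. Epithelial markers were present, with EPCAM at 101.3 to 179 FPKM in knockdown and 159 to 177 FPKM in shNC libraries. ESR1, the oestrogen receptor gene, was at 0.121 to 0.316 FPKM in knockdown and 0.147 to 0.158 FPKM in shNC libraries. ERBB2 (4.59 to 9.23 FPKM in knockdown, 4.51 to 5.68 in shNC) and EGFR (5.29 to 10.3 FPKM in knockdown, 7.12 to 8.07 in shNC) were both at moderate levels, although MDA-MB-468 is known for amplification of EGFR. None of the 11 leukocyte markers in the table passed the filter, and their summed level was 0.819 to 1.86 FPKM in knockdown and 0.624 to 1.26 FPKM in shNC libraries. Of the fibroblast markers only COL1A1 passed. Of the endothelial markers 2 passed, KDR (19.1 to 31.3 FPKM in knockdown, 20.3 to 26.7 in shNC) and ESAM (0.943 to 2.29 FPKM in knockdown, 1.15 to 1.53 in shNC).

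The targeted gene was lower in every knockdown library than in every control library. FAM83H-AS1 (chromosome 8, 143734140 to 143790644 on hg38, plus strand, ENSG00000203499; a gene model listed as IQANK1, of protein-coding biotype, in the reference table) was at 7.37, 5.54 and 4.93 FPKM with hairpin 1 and 8.56, 7.92 and 7.46 FPKM with hairpin 2, against 17.9, 17.5 and 14.3 FPKM with shNC. Its mean log2 change over both hairpins, on the log2(FPKM + 1) scale used throughout, was -1.15 (SE 0.13, limma adjusted p = 0.0076), and its mean over the knockdown hairpins was 42.1% of control. An exact two-sided permutation test of the 6 knockdown against the 3 control libraries gave p = 0.0238. The observed grouping was the most extreme of the 84 in its direction, and the test treats the libraries of both hairpins as 1 group. FAM83H, the protein-coding neighbour on the opposite strand whose gene model overlaps the target, was at 51.9, 40.4 and 41.1 FPKM with hairpin 1 and 47.6, 56.6 and 45.9 FPKM with hairpin 2, against 47.8, 55.8 and 40.4 FPKM with shNC. Those ranges overlapped, and the mean log2 change was -0.02 (SE 0.13, limma adjusted p = 0.939). Its sign turned positive with median-of-ratios scaling (0.029) and trimmed mean scaling (0.0099). The match of the hairpins to the target's gene model was not checked. Reads of the overlapping stretch cannot be assigned to either gene without the strand setting, which the sources used here do not give.

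In the mean effect of both hairpins, 29 genes passed the test, 0.244% of the 11875 tested, with limma and Benjamini-Hochberg adjustment over all of them. Of these, 14 were higher (0.118% of genes tested) and 15 lower (0.126%) in knockdown cells, and all 29 had the same sign with both hairpins. The knockdown libraries lay wholly outside the control range in 27 of the 29, against 14.1% of all genes tested, with 13 above it (7.34% of all) and 14 below it (6.71% of all). The calls rest on the same difference in the same libraries, so this separation is no further evidence. Absolute log2 changes of the 29 ran from 0.63 to 2.43 with a median of 1.12. At an unadjusted p under 0.05 there were 2227 genes (18.8%), 1224 higher (10.3%) and 1003 lower (8.45%). In comparison, hairpin 1 alone had 187 calls (1.57%) and hairpin 2 alone 3 calls (0.0253%), and both contrasts use the same 3 control libraries. Hairpin 1 had the larger effect in 26 of the 29 called genes, as it did in 7210 of the 9337 genes of the same sign (77.2%).

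**Figure D1:**
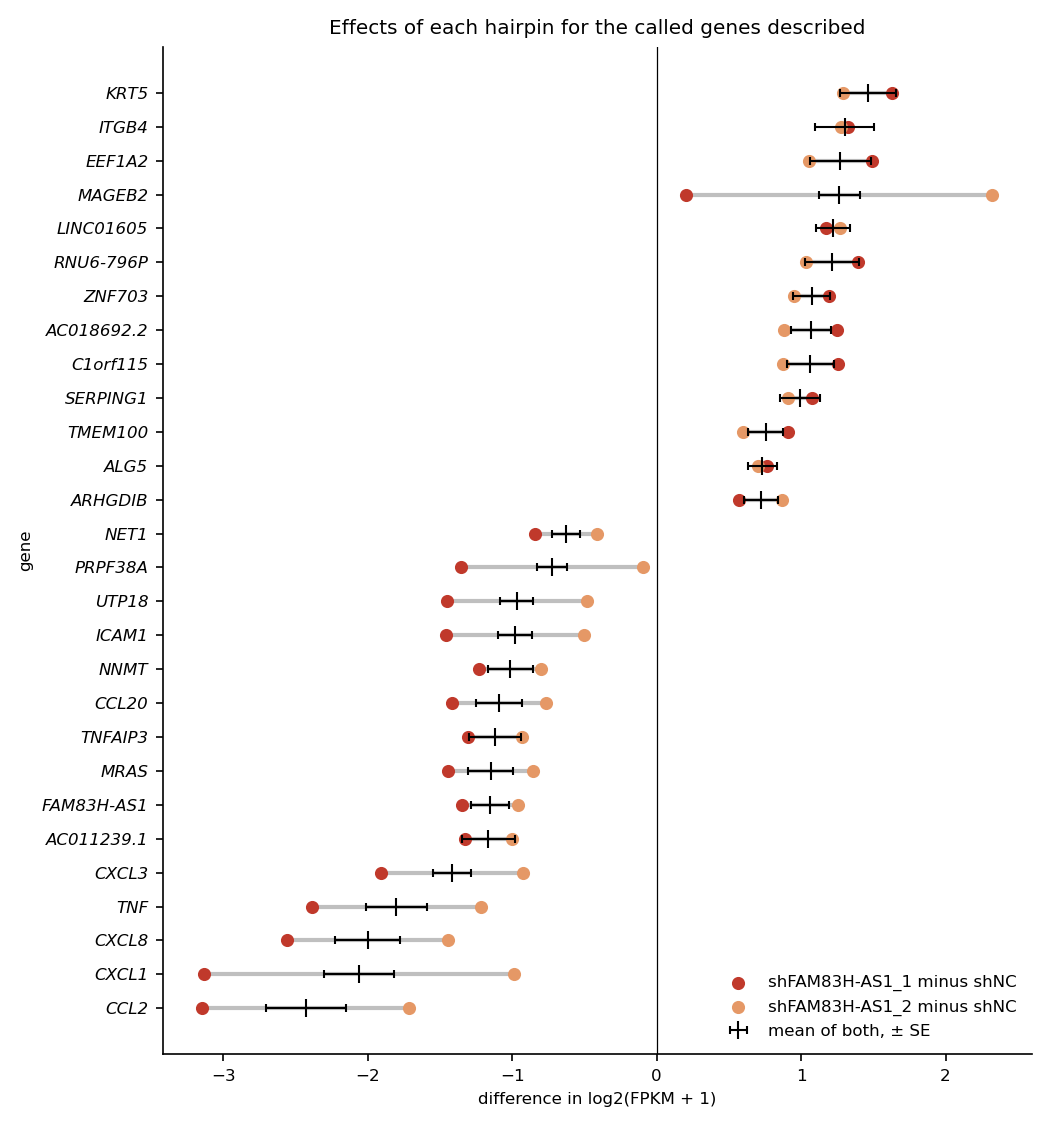
Differences from shNC in log2(FPKM + 1) on the x axis for the called genes described here on the y axis, with hairpin 1 (shFAM83H-AS1_1) in red, hairpin 2 (shFAM83H-AS1_2) in orange and the mean of both with its SE as a black mark. Hairpin 1 lies farther from 0 than hairpin 2 in all 15 lower genes, and MAGEB2 is the called gene with the largest excess for hairpin 2 (2.33, against 0.20 for hairpin 1).

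These calls rested on all 3 control libraries. Without shNC replicate 1 no gene passed (1196 at an unadjusted p under 0.05), without replicate 2 only MAGEB2 passed, and without replicate 3 only CXCL3 and TNF. Without shFAM83H-AS1_1 replicate 3, the library that stands apart, 266 genes passed (165 higher and 101 lower), and these included all 29. Without shFAM83H-AS1_1 replicate 2 the count was 105, again with all 29 among them, and without single libraries of hairpin 2 it was 14 to 16. When the 6 knockdown libraries were treated as 1 group, the spread between the hairpins counted as error, and 7 genes passed, among them ALG5, SERPING1, ZNF703, KRT5, LINC01605 and the target. No chemokine was among those 7.

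**Figure D2:**
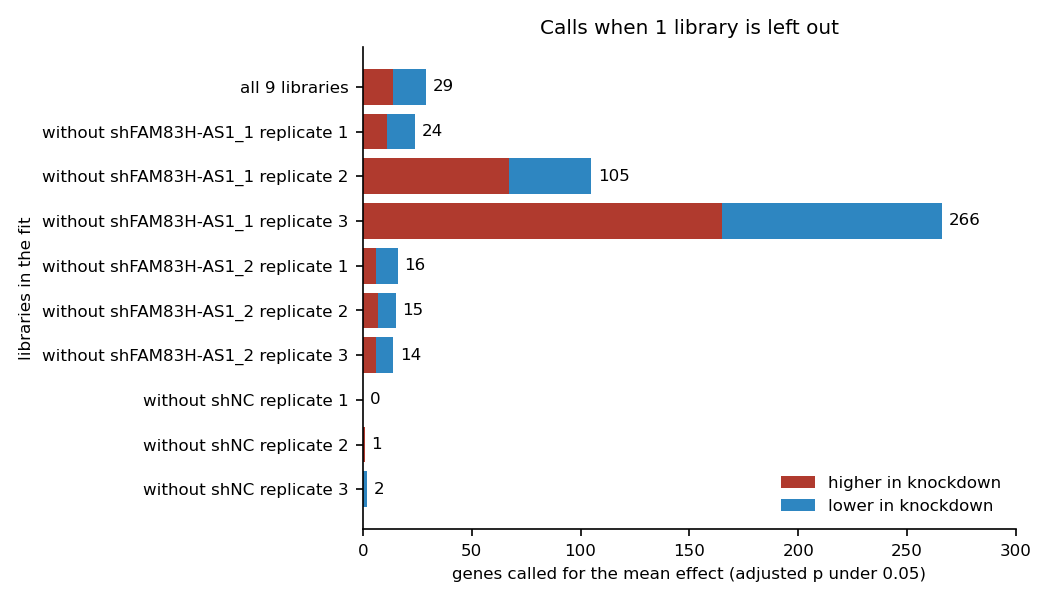
Number of genes called for the mean effect on the x axis (limma adjusted p under 0.05) with all 9 libraries and with each library left out in turn on the y axis, split into genes higher (red) and lower (blue) in knockdown. Counts run from 0 without shNC replicate 1 to 266 without shFAM83H-AS1_1 replicate 3.

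Secreted chemokines and TNF had the 5 largest falls among the 15 genes called lower. CCL2 (ENSG00000108691, chromosome 17, 34255218 to 34257203), which attracts monocytes, was at 1.71, 2.95 and 0.378 FPKM with hairpin 1 and 7.18, 4.98 and 4.92 FPKM with hairpin 2, against 20.3, 22.2 and 19.6 FPKM with shNC. It fell to 17.8% of the control mean, with a mean log2 change of -2.43 (SE 0.27, limma adjusted p = 0.0076). No knockdown library came within the control range, and the lowest value, 0.378 FPKM, was in the library that stands apart. CXCL1 (ENSG00000163739, chromosome 4, 73869393 to 73871308), a neutrophil attractant, was at 1.09, 2.43 and 0.367 FPKM with hairpin 1 and 9.07, 9.49 and 7.04 FPKM with hairpin 2, against 17.6, 16.8 and 19 FPKM with shNC. Its mean log2 change was -2.06 (SE 0.24, limma adjusted p = 0.0076), and the hairpins did not overlap with each other either. CXCL8 (ENSG00000169429, chromosome 4, 73740541 to 73743716), which encodes interleukin-8, was at 0.662, 1.63 and 0.0837 FPKM with hairpin 1 and 2.67, 2.64 and 2.63 FPKM with hairpin 2, against 8.19, 9.04 and 9.52 FPKM with shNC. The 3 libraries of hairpin 2 were nearly equal and lay above all 3 of hairpin 1, and the mean log2 change was -2.001 (SE 0.23, limma adjusted p = 0.0076). In a bulk library, fewer cells making a transcript and less transcript per cell cannot be told apart.

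CXCL3 (ENSG00000163734, chromosome 4, 74036589 to 74038807), a close paralogue of CXCL1, was at 0.278, 0.149 and 0.0563 FPKM with hairpin 1 and 1.52, 1.39 and 0.997 FPKM with hairpin 2, against 3.66, 3.45 and 2.95 FPKM with shNC. It fell, with a mean log2 change of -1.42 (SE 0.13, limma adjusted p = 0.0076). Reads that match both paralogues may have been counted for either or dropped. CCL20 (ENSG00000115009, chromosome 2, 227805739 to 227817564), which draws CCR6-bearing lymphocytes and dendritic cells, was at 0.426, 0.139 and 0 FPKM with hairpin 1 and 1.16, 0.811 and 0.617 FPKM with hairpin 2, against 2.19, 2.38 and 1.87 FPKM with shNC. Those values stand for 0 to 58 reads per library, and the mean log2 change was -1.09 (SE 0.16, limma adjusted p = 0.0236). CXCL1, CXCL3 and CXCL8 all lie on chromosome 4. Without shFAM83H-AS1_1 replicate 3 the mean log2 changes of CCL2, CXCL1, CXCL8, CXCL3 and CCL20 were -2.22, -1.90, -1.84, -1.38 and -1.03, and all 5 passed.

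TNF (ENSG00000232810, chromosome 6, 31575565 to 31578336), the cytokine that both activates NF-kB and is itself an NF-kB target, was at 1.91, 1.05 and 1.08 FPKM with hairpin 1 and 5.08, 4.62 and 3.15 FPKM with hairpin 2, against 11.3, 15.4 and 7.81 FPKM with shNC. Control libraries spread widely, from 7.81 to 15.4 FPKM, yet the highest knockdown library stayed below the lowest control, and the mean log2 change was -1.80 (SE 0.21, limma adjusted p = 0.0076). ICAM1 (ENSG00000090339, chromosome 19, 10271093 to 10286615), the adhesion molecule by which leukocytes bind to cells, was at 12.8, 11.4 and 10.1 FPKM with hairpin 1 and 22.1, 26.4 and 20.8 FPKM with hairpin 2, against 33.1, 35.9 and 30.4 FPKM with shNC. It fell, with a mean log2 change of -0.98 (SE 0.12, limma adjusted p = 0.0076), with each hairpin's libraries in a separate band below the controls. TNFAIP3 (ENSG00000118503, chromosome 6, 137867214 to 137883312), which encodes the feedback inhibitor A20, was at 1.41, 0.758 and 0.609 FPKM with hairpin 1 and 1.73, 1.57 and 1.12 FPKM with hairpin 2, against 3.6, 4.78 and 2.89 FPKM with shNC. Its mean log2 change was -1.12 (SE 0.18, limma adjusted p = 0.0399), and leaving out 1 library in turn kept the call in 3 of 9 fits.

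**Figure D3:**
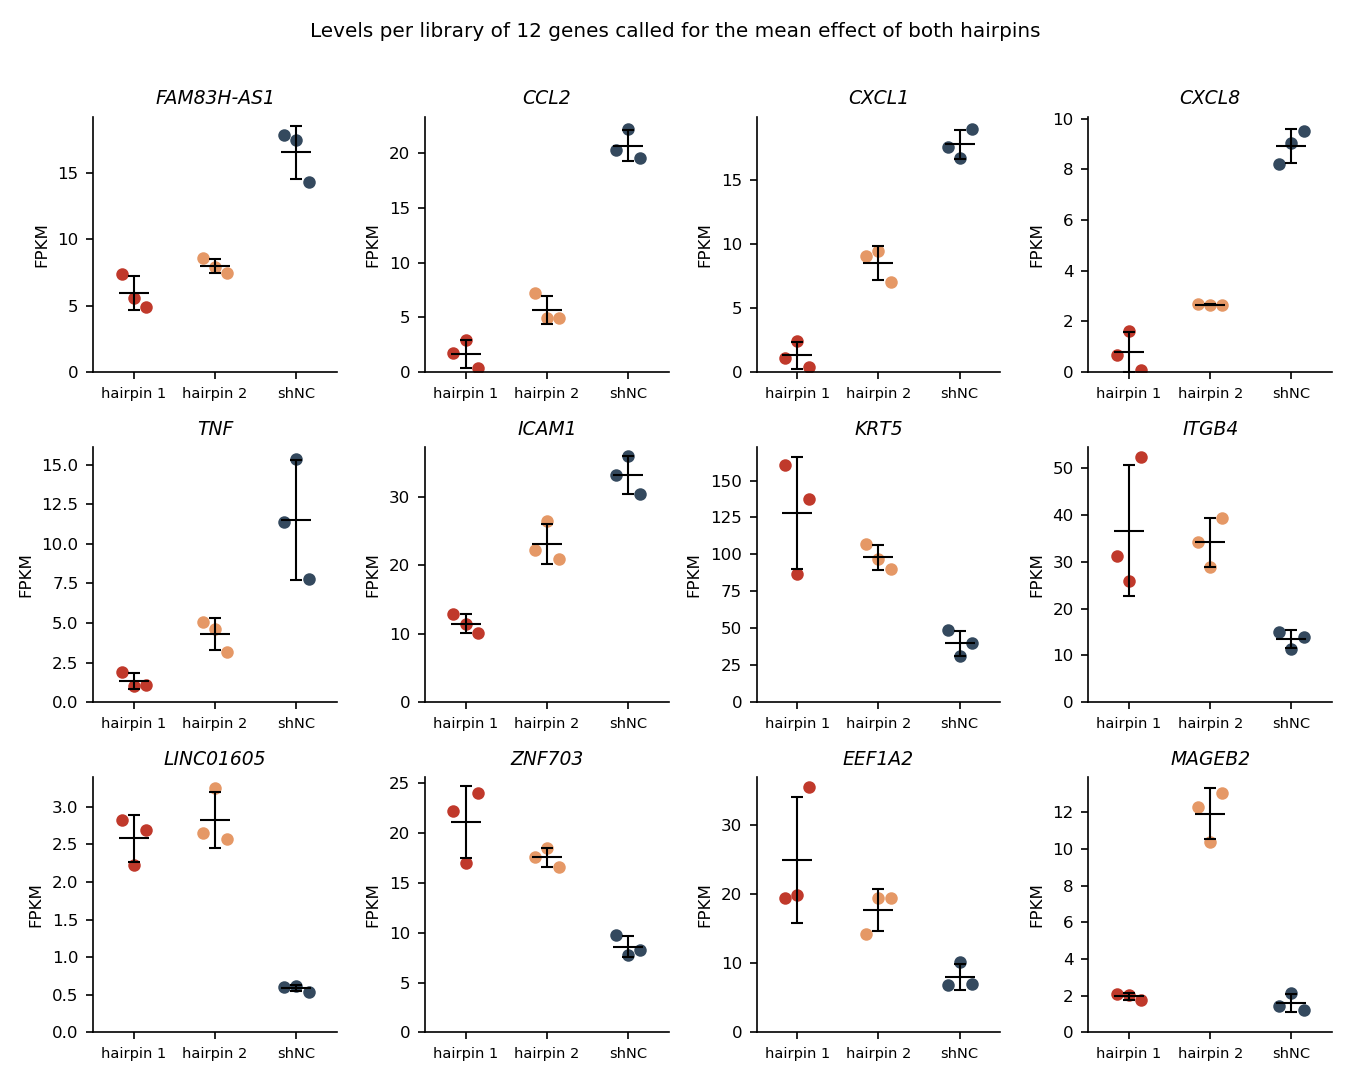
FPKM per library for 12 called genes, with hairpin 1 (shFAM83H-AS1_1), hairpin 2 (shFAM83H-AS1_2) and shNC from left to right on the x axis, libraries as points and means ± SD as black bars (n = 3). The inflammatory genes have hairpin 2 between hairpin 1 and shNC, whereas KRT5, ITGB4, LINC01605 and ZNF703 have both hairpins above the control, and MAGEB2 stands out with hairpin 2 alone (10.4 to 13.1 FPKM).

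In the list of NF-kB targets and inflammatory cytokines, 8 of 18 measured genes were called lower and 0 higher, against 0.126% of all genes called lower. This list, like the others below, was written with earlier results of these data known. Its counts beside those of all genes are therefore descriptions and not independent tests. In 17 of the 18 both hairpins gave a negative difference, against 5246 of all 11875 genes tested. In 13 all 6 knockdown libraries lay below all controls, against 6.71% of all genes tested. The median mean log2 change of the list was -0.93 (-1.25 with hairpin 1 and -0.54 with hairpin 2), against -0.05 over all genes. Some members that missed the threshold are given too, chosen after their values were seen. NFKBIA, the IkB alpha inhibitor, averaged 30.7 FPKM with hairpin 1 and 33.9 FPKM with hairpin 2, against 46.0 FPKM with shNC, and its mean log2 change was -0.50 (limma adjusted p = 0.067). The chemokine CXCL10 had a mean log2 change of -1.08 (limma adjusted p = 0.072) and the NF-kB subunit RELB of -0.73 (limma adjusted p = 0.106). BCL3, an atypical IkB protein, was the member without a negative sign (mean log2 change 0.14). The number called lower in the list was 0 without shNC replicate 1 or 2 and with the 6 knockdown libraries as 1 group, 2 without shNC replicate 3, but 13 without shFAM83H-AS1_1 replicate 3 (0.851% of all genes in that fit), while the median stayed between -1.05 and -0.87 in all alternatives.

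Outside the inflammatory genes, several signalling and RNA-processing genes were lower. MRAS, a RAS-related GTPase that joins SHOC2 to activate RAF, was at 13.5, 11.6 and 8.49 FPKM with hairpin 1 and 20.2, 15 and 16.3 FPKM with hairpin 2, against 30.8, 28.6 and 35.9 FPKM with shNC. It fell, with a mean log2 change of -1.15 (SE 0.15, limma adjusted p = 0.0168). NET1, a guanine nucleotide exchange factor for RHOA, was at 13.2, 14.8 and 14.1 FPKM with hairpin 1 and 20.3, 18.5 and 18.8 FPKM with hairpin 2, against 24.6, 25.1 and 28.1 FPKM with shNC. The fall was small but even across libraries, with a mean log2 change of -0.63 (SE 0.09, limma adjusted p = 0.0325). NNMT, which methylates nicotinamide, was at 0.359, 0.605 and 0.599 FPKM with hairpin 1 and 1.35, 0.79 and 1.03 FPKM with hairpin 2, against 3.41, 2.04 and 2.34 FPKM with shNC. Its level was low in every group and its mean log2 change was -1.01 (SE 0.16, limma adjusted p = 0.0374).

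UTP18, a component of the small-subunit processome in the nucleolus, was at 10.3, 10.6 and 8.28 FPKM with hairpin 1 and 22.5, 19.9 and 17.5 FPKM with hairpin 2, against 28, 29.8 and 26.9 FPKM with shNC. All libraries of hairpin 1 were far below those of hairpin 2, and the mean log2 change was -0.97 (SE 0.12, limma adjusted p = 0.0076). PRPF38A, a spliceosome protein, was at 8.58, 9.48 and 7.94 FPKM with hairpin 1 and 23.4, 21.6 and 21.2 FPKM with hairpin 2, against 25.6, 21.2 and 24.2 FPKM with shNC. The libraries of hairpin 2 overlapped the controls here, so the mean log2 change of -0.72 (SE 0.10, limma adjusted p = 0.0227) came from hairpin 1. AC011239.1, annotated as an antisense transcript on chromosome 2, was at 1.69, 2.27 and 1.39 FPKM with hairpin 1 and 1.69, 3.08 and 2.73 FPKM with hairpin 2, against 6.19, 4.49 and 7.38 FPKM with shNC, with a mean log2 change of -1.16 (SE 0.19, limma adjusted p = 0.0399). Without known strand its reads cannot be told from those of a gene on the other strand. It and PRPF38A fell outside the rule for named genes and were chosen after their values were seen.

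On the higher side, KRT5 and ITGB4 had the 2 largest mean effects. KRT5 (ENSG00000186081, chromosome 12, 52514575 to 52520530), the type II keratin of basal cells, was at 160.4, 86.7 and 137 FPKM with hairpin 1 and 107, 97.1 and 90.3 FPKM with hairpin 2, against 48.6, 31.5 and 39.9 FPKM with shNC. It rose to 283% of the control mean, a mean log2 change of 1.46 (SE 0.19, limma adjusted p = 0.0168), with no overlap between knockdown and control libraries. ITGB4 (ENSG00000132470, chromosome 17, 75721328 to 75757818), the integrin beta 4 subunit that anchors hemidesmosomes, was at 31.3, 26 and 52.4 FPKM with hairpin 1 and 34.3, 28.9 and 39.4 FPKM with hairpin 2, against 15.1, 11.4 and 14 FPKM with shNC. The mean log2 change was 1.30 (SE 0.20, limma adjusted p = 0.0374), and both hairpins gave nearly the same value (1.32 and 1.28). The value of hairpin 1 includes the library that stands apart, its highest at 52.4 FPKM, against 31.3 and 26 FPKM in its replicates. Its likeness to hairpin 2 thus depends partly on that library.

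ZNF703, a transcriptional repressor encoded in the 8p11 region amplified in some luminal breast cancers, was at 22.2, 17 and 24 FPKM with hairpin 1 and 17.6, 18.5 and 16.6 FPKM with hairpin 2, against 9.78, 7.8 and 8.23 FPKM with shNC. It rose by a mean log2 change of 1.07 (SE 0.13, limma adjusted p = 0.0076). SERPING1, the C1 inhibitor of the complement cascade, was at 5.64, 4.93 and 7.41 FPKM with hairpin 1 and 4.66, 4.99 and 5.9 FPKM with hairpin 2, against 2.06, 2.56 and 2.23 FPKM with shNC. The mean log2 change was 0.99 (SE 0.14, limma adjusted p = 0.0201), with hairpin effects of 1.08 with hairpin 1 and 0.91 with hairpin 2. ALG5, an enzyme of dolichol-linked sugar synthesis in the endoplasmic reticulum, was at 27.7, 31.9 and 26.4 FPKM with hairpin 1 and 27.6, 26.5 and 28.1 FPKM with hairpin 2, against 17.3, 15 and 17.2 FPKM with shNC. These libraries gave a mean log2 change of 0.73 (SE 0.10, limma adjusted p = 0.018), with hairpin effects of 0.76 and 0.70.

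EEF1A2, a tissue-restricted form of translation elongation factor 1A, was at 19.5, 19.9 and 35.5 FPKM with hairpin 1 and 14.2, 19.4 and 19.5 FPKM with hairpin 2, against 6.88, 10.3 and 6.98 FPKM with shNC. The library that stands apart was its highest, and the mean log2 change was 1.27 (SE 0.21, limma adjusted p = 0.048), or 1.14 without that library. ARHGDIB, an inhibitor of small GTPase cycling, was at 64.7, 64 and 83.3 FPKM with hairpin 1 and 86.6, 80.4 and 92.7 FPKM with hairpin 2, against 49.6, 41.8 and 49.5 FPKM with shNC. It rose by a mean log2 change of 0.72 (SE 0.12, limma adjusted p = 0.0424). C1orf115 was at 42.5, 33.9 and 52.2 FPKM with hairpin 1 and 37, 28 and 32.3 FPKM with hairpin 2, against 20.9, 13.9 and 17.2 FPKM with shNC, with a mean log2 change of 1.06 (SE 0.16, limma adjusted p = 0.0374). TMEM100, a membrane protein, was at 1.68, 1.52 and 1.46 FPKM with hairpin 1 and 1.08, 0.909 and 1.18 FPKM with hairpin 2, against 0.262, 0.361 and 0.455 FPKM with shNC. Its control level was under 1 FPKM in every library, and the mean log2 change was 0.75 (SE 0.12, limma adjusted p = 0.0399).

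Noncoding and low-count rows completed the higher side. LINC01605 (ENSG00000253414, chromosome 8, 37516399 to 37521447), a long intergenic noncoding RNA, was at 2.83, 2.23 and 2.7 FPKM with hairpin 1 and 2.66, 3.26 and 2.57 FPKM with hairpin 2, against 0.599, 0.618 and 0.542 FPKM with shNC. The difference was about the same with hairpin 1 (1.17) and hairpin 2 (1.27), and the mean log2 change was 1.22 (SE 0.12, limma adjusted p = 0.0076). It was the only one of the 29 that also passed with hairpin 2 alone together with hairpin 1 alone (limma adjusted p = 0.0137 and 0.0075). The processed pseudogene AC018692.2 had 48 reads in the 6 knockdown and 2 in the 3 control libraries, and the small RNA pseudogene RNU6-796P had 15 and 0, so their calls rest on few reads and their fitted changes depend on the pseudocount. All 3 rows were chosen after their values were seen. With TMEM100 they were the 4 called genes with no control library at 1 FPKM, and they passed the filter on low values only through knockdown libraries.

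MAGEB2, a cancer-testis antigen gene of the X chromosome, was at 2.07, 2.06 and 1.75 FPKM with hairpin 1 and 12.3, 10.4 and 13.1 FPKM with hairpin 2, against 1.42, 2.16 and 1.22 FPKM with shNC. It was called for the mean effect, 1.26 (SE 0.14, limma adjusted p = 0.0076), although only hairpin 2 lay above the controls. The other measured cancer-testis genes did not pass, and of the 7 in that list the median mean log2 change was -0.15.

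A mean of 2 effects can hide a difference between them, so the hairpins were also compared directly. This contrast of hairpin 2 minus hairpin 1, which uses no control library, gave 11 calls (0.0926% of genes tested), and 5 of the 29 called genes were among them. CXCL1 differed by 2.15 (SE 0.28, limma adjusted p = 0.0258), ICAM1 by 0.95 (SE 0.13, limma adjusted p = 0.0355) and UTP18 by 0.97 (SE 0.13, limma adjusted p = 0.0347). PRPF38A differed by 1.26 (SE 0.12, limma adjusted p = 0.00536) and MAGEB2 by 2.12 (SE 0.16, limma adjusted p = 0.00149). In the first 4 hairpin 1 was the lower, and in MAGEB2 hairpin 2 was the higher. For the other 24 the difference did not pass, which does not show that the hairpins act alike.

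Genes whose hairpin effects had opposite signs were left out by the rule, and the 4 with the largest opposed effects show what the mean conceals. AKR1C2, an aldo-keto reductase that inactivates steroids, was at 3.75, 3.04 and 3.63 FPKM with hairpin 1 and 12.8, 9.44 and 11.4 FPKM with hairpin 2, against 5.58, 5.25 and 6.85 FPKM with shNC. The hairpins lay on either side of the control libraries and differed by 1.45 (SE 0.15, limma adjusted p = 0.00679), whereas the mean log2 change was 0.10 (SE 0.13, limma adjusted p = 0.668). KRT14, the keratin that pairs with KRT5, averaged 26.9 ± 6.81 FPKM with hairpin 1 and 57 ± 2.65 FPKM with hairpin 2, against 37.5 ± 7.15 FPKM with shNC (SD, n = 3 each), and its hairpins differed by 1.08 (SE 0.18, limma adjusted p = 0.0801). S100A7, a calcium-binding protein of stressed epithelium, had hairpin effects of -0.59 with hairpin 1 and 0.72 with hairpin 2. The pseudogene IGFL1P1 had -0.50 with hairpin 1 and 0.48 with hairpin 2, and neither difference between hairpins passed the test (limma adjusted p = 0.569 and 0.604).

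At the edge of the filter on low values, AC127496.7 and PGAM1P7 were just inside, with a third-highest library of 1.00 FPKM each. Their means were 0.800 and 0.825 FPKM in knockdown and 0.395 and 0.855 FPKM in shNC libraries. SH3TC1 and AC096992.2 were just outside, with means of 0.988 and 0.946 FPKM in knockdown and 0.693 and 0.795 FPKM in shNC libraries. Of the 9337 genes of the same sign, 7560 had 1 FPKM or more in all 9 libraries, 267 had no control library and 15 had no knockdown library at that level.

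Gene lists other than the NF-kB list had medians nearer 0 and held few calls. In the list of MYC and ribosome biogenesis genes, 1 of 30 measured genes was called lower (UTP18) and 0 higher, against 0.126% of all genes called lower, with a median mean log2 change of -0.49 (-0.67 with hairpin 1 and -0.29 with hairpin 2). Both hairpins gave a negative difference in 26 of its genes, against 5246 of all 11875 genes tested. NOP56, a core box C/D snoRNP protein, had -0.54 (SE 0.15, limma adjusted p = 0.15), and NIP7, a factor of ribosome subunit assembly, had -0.50 (SE 0.15, limma adjusted p = 0.152). Without shFAM83H-AS1_1 replicate 3 the median was -0.35 and 6 genes were called lower, against 0.851% of all genes in that fit. The list of YAP/TEAD targets, which respond to cell density and tension, had 0 of 18 called and a median of -0.31, or -0.16 without that library.

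Genes of hypoxia and glycolysis lay on the other side. Of 29 measured, 0 were called, although 27 were higher with both hairpins, against 4091 of all 11875 genes tested. In the higher direction 15 had an unadjusted limma p under 0.05, against 10.3% of all genes. The median mean log2 change was 0.49 (0.58 with hairpin 1 and 0.38 with hairpin 2), and 0.36 without shFAM83H-AS1_1 replicate 3, when 3 were called higher, against 1.39% of all genes in that fit. CA9, a carbonic anhydrase induced by hypoxia, was at 6.22, 10.7 and 52.8 FPKM with hairpin 1 and 9.13, 10.6 and 21.2 FPKM with hairpin 2, against 0.986, 6.48 and 1.43 FPKM with shNC. Its control libraries ranged from 0.986 to 6.48 FPKM and overlapped the knockdown libraries, and the mean log2 change of 2.19 (SE 0.62, limma adjusted p = 0.148) did not pass. NDRG1, another hypoxia-responsive gene, was at 35.7, 67.1 and 218 FPKM with hairpin 1 and 67.4, 48.6 and 93.7 FPKM with hairpin 2, against 18.3, 33.7 and 26.7 FPKM with shNC, with a mean log2 change of 1.499 (SE 0.47, limma adjusted p = 0.17). The highest value of both genes was in the library that stands apart.

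The list of basal keratins and epithelial adhesion had 2 of 31 called higher, KRT5 and ITGB4, against 0.118% of all genes, 0 called lower and a median of only 0.06, which turned negative without shFAM83H-AS1_1 replicate 1. Both hairpins gave a positive difference in 16 of its genes and a negative one in 7, against 4091 and 5246 of all 11875 genes tested. CLDN1, a tight junction protein, had the lowest value, -1.01 (limma adjusted p = 0.146), and KRT6B, another type II keratin, had -0.61 (limma adjusted p = 0.302). These were chosen after their values were seen. LAMB3, a laminin chain that binds the integrin of ITGB4, had 0.57 (SE 0.13, limma adjusted p = 0.106) and missed the threshold. Among 21 mesenchymal and matrix genes 0 were called, with a median of 0.31 (0.21 with hairpin 1 and 0.49 with hairpin 2). FN1, which encodes fibronectin, was at 8.86, 12.4 and 26.7 FPKM with hairpin 1 and 18.7, 10.5 and 32 FPKM with hairpin 2, against 4.26, 6.17 and 4.05 FPKM with shNC. The libraries did not overlap, yet the spread within knockdown was wide and the mean log2 change of 1.59 (SE 0.36, limma adjusted p = 0.108) did not pass. THBS1, which encodes thrombospondin 1, averaged 3.6 ± 1.42 FPKM with hairpin 1 and 6.16 ± 0.726 FPKM with hairpin 2, against 11.4 ± 1.54 FPKM with shNC (SD, n = 3 each). Its difference had the other sign, -1.13 (SE 0.19, limma adjusted p = 0.0557), and missed the threshold. COL1A1 had 0.65 (SE 0.16, limma adjusted p = 0.123), and it is also the fibroblast marker that passed the filter. The part of other cell types in this was not tested.

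**Figure D4:**
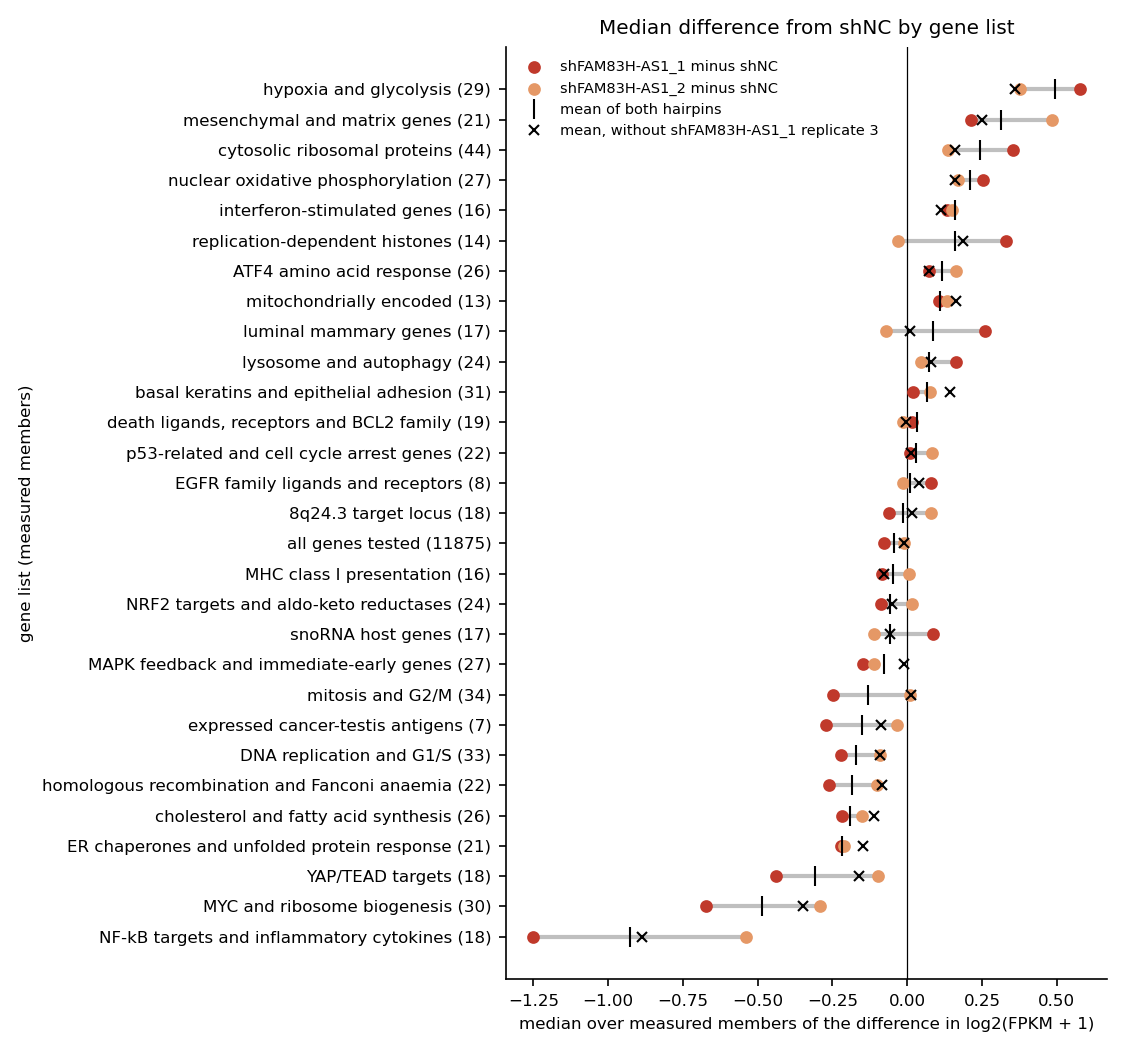
Median difference from shNC in log2(FPKM + 1) on the x axis over the measured members of each gene list on the y axis, for hairpin 1 (red), hairpin 2 (orange), the mean of both (black bar) and the mean without shFAM83H-AS1_1 replicate 3 (cross). The NF-kB list lies lowest (-0.93) and the hypoxia and glycolysis list highest (0.49), with all genes tested at -0.05.

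Ribosomal and respiratory lists had medians slightly above 0. Cytosolic ribosomal proteins had 0 of 44 called and 37 higher with both hairpins, against 4091 of all 11875 genes tested. Their median was 0.24, which lay between 0.09 and 0.29 over the other scalings. Nuclear oxidative phosphorylation genes had 0 of 27 called and a median of 0.21, and the 13 mitochondrially encoded genes had 0 called and a median of 0.11, which turned negative without shNC replicate 3. Summed FPKM of the cytosolic ribosomal proteins was 14658 to 22712 in knockdown and 13750.2 to 14719.7 in shNC libraries. Their part in the other changes was not tested. The remaining pathway lists had medians between -0.22 (endoplasmic reticulum chaperones) and 0.16 (interferon-stimulated genes), and none of them held a call. Among these, TNFSF10, the death ligand TRAIL, was at 3.21, 5.58 and 8.01 FPKM with hairpin 1 and 1.67, 1.09 and 2.41 FPKM with hairpin 2, against 0.83, 0.704 and 0.534 FPKM with shNC. The mean log2 change of 1.28 (SE 0.23, limma adjusted p = 0.0633) missed the threshold, and in the libraries it was hairpin 1 that was highest. The 18 measured genes of 8q24.3 around the target, which leave out the target itself, had 0 called and a median of -0.01, which was positive under the 3 other scalings.

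By library, the NF-kB list was lower than the control mean in all 6 knockdown libraries, by an average over its genes of -1.15, -1.29 and -1.54 with hairpin 1 and -0.63, -0.61 and -0.81 with hairpin 2, against 0.01, 0.15 and -0.16 in the control libraries. The library that stands apart was the lowest for this list, and it also had the lowest FPKM of CCL2 (0.378), CXCL1 (0.367) and CXCL8 (0.0837). Its average lay farther from its replicates in others: the hypoxia and glycolysis list averaged 0.18, 0.53 and 1.47 with hairpin 1 and 0.46, 0.33 and 0.70 with hairpin 2, against -0.13, 0.09 and 0.04 with shNC. For MYC and ribosome biogenesis the averages were -0.29, -0.49 and -1.17 with hairpin 1 and -0.24, -0.10 and -0.42 with hairpin 2, against 0.00, 0.10 and -0.10 with shNC. What sets that library apart was not tested.

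**Figure D5:**
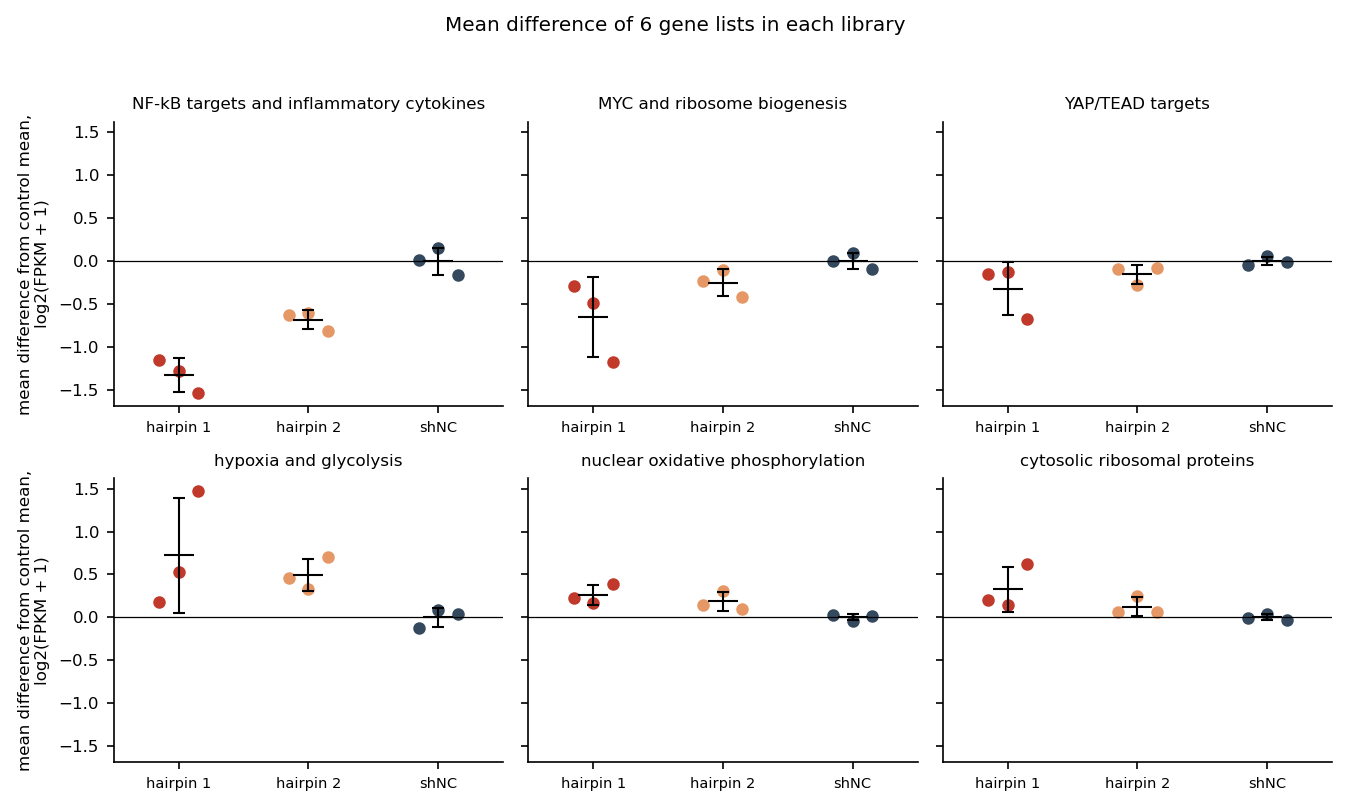
Mean difference from the control mean in log2(FPKM + 1) on the y axis for 6 gene lists, 1 panel each, with hairpin 1 (shFAM83H-AS1_1), hairpin 2 (shFAM83H-AS1_2) and shNC on the x axis, libraries as points and means ± SD as black bars (n = 3). The NF-kB list is at -1.54 to -0.61 in the knockdown libraries, lowest in shFAM83H-AS1_1 replicate 3. That library lies farther from its replicates in the hypoxia (1.47) and ribosome biogenesis (-1.17) lists.

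The called genes also had features that the rule did not use. Median GC content of the gene model was 53.6% for genes called higher and 49.5% for genes called lower, against 48.8% for all genes tested. Median length was 2626.5 bp for genes called higher and 2703 bp for genes called lower, against 4610 bp for all. With the trend of effects with GC content removed 88 genes passed, including 26 of the 29, and 11 of the 18 NF-kB list members were then called lower, against 0.362% of all genes in that fit.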

How the data were processed

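The authors deposited 1 table of FPKM values, and the submitters' processing notes name hg38 with HTSeq 0.6.0, Bowtie2 2.2.3 and HISAT2 2.1.0 but no role for each. The sources used here do not give the strand setting, the annotation release or how reads that match several places were handled. Of 31005 lines 1 stray fragment was left out. Groups and replicate numbers came from sample titles.

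log2(FPKM + 1) was computed from the deposited FPKM and tested with limma 3.58.1 in R 4.3.3 (1 mean per group, all 9 libraries, variances that follow the mean level). The contrast was the mean of both hairpin groups minus shNC, two-sided, with p adjusted by Benjamini-Hochberg over 11875 genes and a threshold of 0.05. Fold changes on this scale understate the change of genes near or under 1 FPKM. The script was tested on simulated data.

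Whole reads were recovered from the FPKM for 99.97% of genes within 1e-05 reads, at scaling depths of 15270673 to 18115070 reads. Voom on these reads, an alternative, called 24 genes. Chi-square per degree of freedom between replicates was 12.5 or more, so none is a repeat deposit of another.

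Same-numbered libraries of shNC and hairpin 2 deviated together, but those of hairpin 1 did not, so the numbers were not taken to pair the groups. The text names the target and FAM83H, and up to 12 called genes per direction that have no overlap with controls and at least 1 FPKM. It also names those most and least alike between hairpins, the 3 members of each list with the smallest p, 4 genes of opposite sign and 4 at the filter's edge. One called gene is not reported here. Members and lists were chosen with earlier results of these data known. Python 3.11.15 with pandas 2.3.3 and matplotlib 3.10.9 prepared values and plots, and symbols came from a gene name table, RefSeq and GENCODE 29.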

Additional observations from a re-analysis of the deposited data

Results flagged for a closer look

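In 17 of 115 named genes examined, 1 of the 6 knockdown libraries lay far from the other 5, with a gap to its neighbour, as a share of the whole range, past the critical value of Dixon's test. Chance flags about 1 in 20 groups of 6 independent values from 1 normal population. The 6 libraries belong to 2 hairpins and the genes share them, so that rate is no yardstick for the 17. In 16 of the 17 that library was shFAM83H-AS1_1 replicate 3. The largest gaps over range were those of DNAJB11 (0.889), USP18 (0.864), AMOTL2 (0.800), RPL7A (0.738) and HMGCS1 (0.729). ULK1 (0.678), GCLM (0.676), KRT19 (0.675), CTSB (0.667), KRT8 (0.666), MAD2L1 (0.664) and CDH3 (0.661) followed, and then TGFB2 (0.651), EEF1A2 (0.638), KRT18 (0.636) and MCM10 (0.630). EEF1A2 is the 1 of these that was called for the mean effect. In ALG5, also called, the library apart was shFAM83H-AS1_1 replicate 2 (0.666).

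In 6 named genes the 2 hairpins differed from each other past the limma threshold. Hairpin 2 minus hairpin 1 was 2.15 on the log2 scale for CXCL1, 2.12 for MAGEB2, 1.26 for PRPF38A, 0.97 for UTP18 and 0.95 for ICAM1, which were all called for the mean effect. It was 1.45 for AKR1C2, whose hairpin effects had opposite signs.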

How the results depend on the processing

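With all 9 libraries 29 genes were called for the mean effect, all of the same sign with both hairpins. The count was 17 with a pseudocount of 0.1 (9 higher and 8 lower), 30 with no filter on low values (9 and 21, of which 16 were among the 29), 26 with 5 FPKM as filter, 27, 29 and 30 with median-of-ratios, trimmed mean and quantile scaling, 28 with robust variances and 24 with voom. It was 7 with the 6 knockdown libraries as 1 group, 88 with the GC trend removed and 2673 with library weights (2655 of the same sign with both hairpins). With the replicate block it was 26, of which 21 were among the 29, and 96 with block and GC trend removed. The 8 genes without a call under the block were ALG5, EEF1A2, PRPF38A, NET1, NNMT, TMEM100, AC011239.1 and RNU6-796P (limma adjusted p = 0.0519 to 0.102). Leaving out 1 library gave 0 to 266 calls, and 0 to 265 of the same sign. No scaling moved the median of all genes by over 0.1.

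The difference between hairpins had 11 calls, with 7 at a pseudocount of 0.1, 4 with the replicate block, 31 with block and GC trend removed, 38 with the GC trend removed, 148 with library weights and 5 with voom, and 3 to 17 without 1 library. The number of genes of the same sign with both hairpins was 20835 with no filter and 5485 with 5 FPKM as filter, by construction. The mean log2 change of FAM83H-AS1 was between -1.25 and -1.10 without 1 library. It did not pass without shNC replicate 1, 2 or 3 (limma adjusted p = 0.083, 0.065 and 0.059).

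Among single genes, signs turned for FAM83H (0.029 with median-of-ratios scaling, 0.0099 with trimmed mean scaling, 0.034 with library weights, 0.012 with voom, and between -0.136 and 0.092 without 1 library) and GSDMD (-0.010 with the GC trend removed, with and without block), and in some alternatives for KRT14, S100A7 and IGFL1P1, whose hairpin effects are opposed. The median crossed 0 in at least 1 of the 22 alternatives for 12 of the 32 gene lists, which had medians between -0.13 and 0.16. The cause of these changes was not tested. Deviations of same-numbered libraries correlated at 0.20, 0.35 and 0.39 between shFAM83H-AS1_2 and shNC, at 0.18, -0.39 and -0.25 between shFAM83H-AS1_1 and shNC, and at 0.13, -0.45 and -0.24 between hairpins, so not every library was closest to its own number. Replicate 2 of hairpin 1 correlated with replicate 3 of shNC (0.445) and of hairpin 2 (0.441). Its replicate 3 correlated with their replicate 2 (0.301 and 0.306). Libraries of different groups may thus not be independent, as the main fit takes them to be. With 3 controls, and values of low genes resting on few reads, small changes were not detectable.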
